A study of Mus musculus with 4 samples.

Results

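The mitochondrial protein import machinery and the chaperones that fold imported proteins in the matrix were examined in 4T1 cells sorted by mitochondrial membrane potential (MMP). The group is a list of 38 gene names, chosen by function but with earlier results of these data known. Of these, 37 were found among the 20197 genes of the table by their current or older symbol. *Tomm6*, a small subunit of the outer membrane channel, is not analysed here. 4T1 is an established mouse mammary tumor cell line used as a model of metastatic breast cancer, and the cells of both groups were wildtype and untreated apart from staining with MitoSpy Red at 20 nM, a dye that accumulates in mitochondria with a high membrane potential. The 5% of cells with the brightest stain were sorted as high MMP and the 5% with the dimmest stain as low MMP, with 2 RNA-sequencing samples in each group. RNA came from 100000 sorted cells per sample. The model is thus 1 cell line in culture, and the sort followed the dye alone.

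Most mitochondrial proteins are encoded in the nucleus, made in the cytosol and imported through the translocase of the outer membrane (TOM). Proteins with an N-terminal presequence are then passed to the TIM23 channel of the inner membrane, where the membrane potential drives the presequence across and an ATP-driven motor built around mortalin (Hspa9) pulls in the rest. The matrix processing peptidase removes the presequence, and the chaperonin pair Hspd1 and Hspe1 helps the protein fold. Carrier proteins take another route through the small TIM chaperones and the TIM22 translocase, which also needs the potential. Barrel proteins of the outer membrane are inserted by the SAM complex. The comparison asks whether the RNA levels of this potential-dependent machinery differ between cells sorted for high and low potential.

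The libraries held 26395015 reads in high MMP 1, 23899813 in high MMP 2, 22941960 in low MMP 1 and 22591970 in low MMP 2, after whole reads were recovered from the deposited values. Levels below are normalized reads, in the authors' unit that brings every library to 20000000 reads. A difference is the mean log2(normalized reads + 1) of high MMP cells minus that of low MMP cells. The 2 high MMP libraries stood further apart than the 2 low MMP libraries, with a median absolute log2 difference of 0.21 against 0.11 over the 12902 genes whose mean was 10 normalized reads or more (the well-covered genes). All 5 epithelial tumor markers examined (*Epcam*, *Krt8*, *Krt18*, *Krt19* and *Cdh1*) were present, with summed levels of 35712 to 48422 normalized reads per library. Of 4 leukocyte markers 2 were measured, which summed to 60.6 and 140 normalized reads in high and 149 and 93 in low MMP cells, nearly all of it *Cd68*, while *Ptprc* had at most 1.77. Of 4 endothelial markers 2 were measured, with at most 6.2 in sum. Of 4 fibroblast markers 3 were measured, and they summed to 331 and 367 in high and 538 and 597 in low MMP cells, nearly all of it *Pdgfra*, while *Col1a2* had at most 3.03. The 6 G2/M-phase genes examined summed to 61235 and 62367 normalized reads in high MMP cells and to 29544 and 32939 in low MMP cells, and the 6 S-phase genes to 24073 and 18033 against 29406 and 30189. The part of these marker and cell cycle differences in the values that follow was not tested. In such bulk samples, a change in the share of cells of a given state and a change in the RNA per cell cannot be told apart.

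None of the 37 import genes differed between high and low MMP cells at an adjusted p under 0.05. The adjusted p-values of limma, taken over all genes of the table, ran from 0.650 to 0.997. The same test called 0% of all genes, so the count of 0 does not set the import genes apart. At an unadjusted p under 0.05 the count was again 0 of 37, against 9.96% of all genes. On the recovered reads, edgeR called 0 of 37 import genes and 0% of all genes after adjustment, and 0 of 37 against 7.05% without it. DESeq2 called 0 of 37 against 0.584% of all genes after adjustment, and 0 of 37 against 3.27% without it. The differences lay within 0.1 of 0 for 29 of the 37 genes, and the 95% interval from limma stayed within a 2-fold change in either direction for 36 of 37, the exception being *Timm10b*. For 29 genes the interval stayed within 0.5 on the log2 scale.

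**Figure D1:**
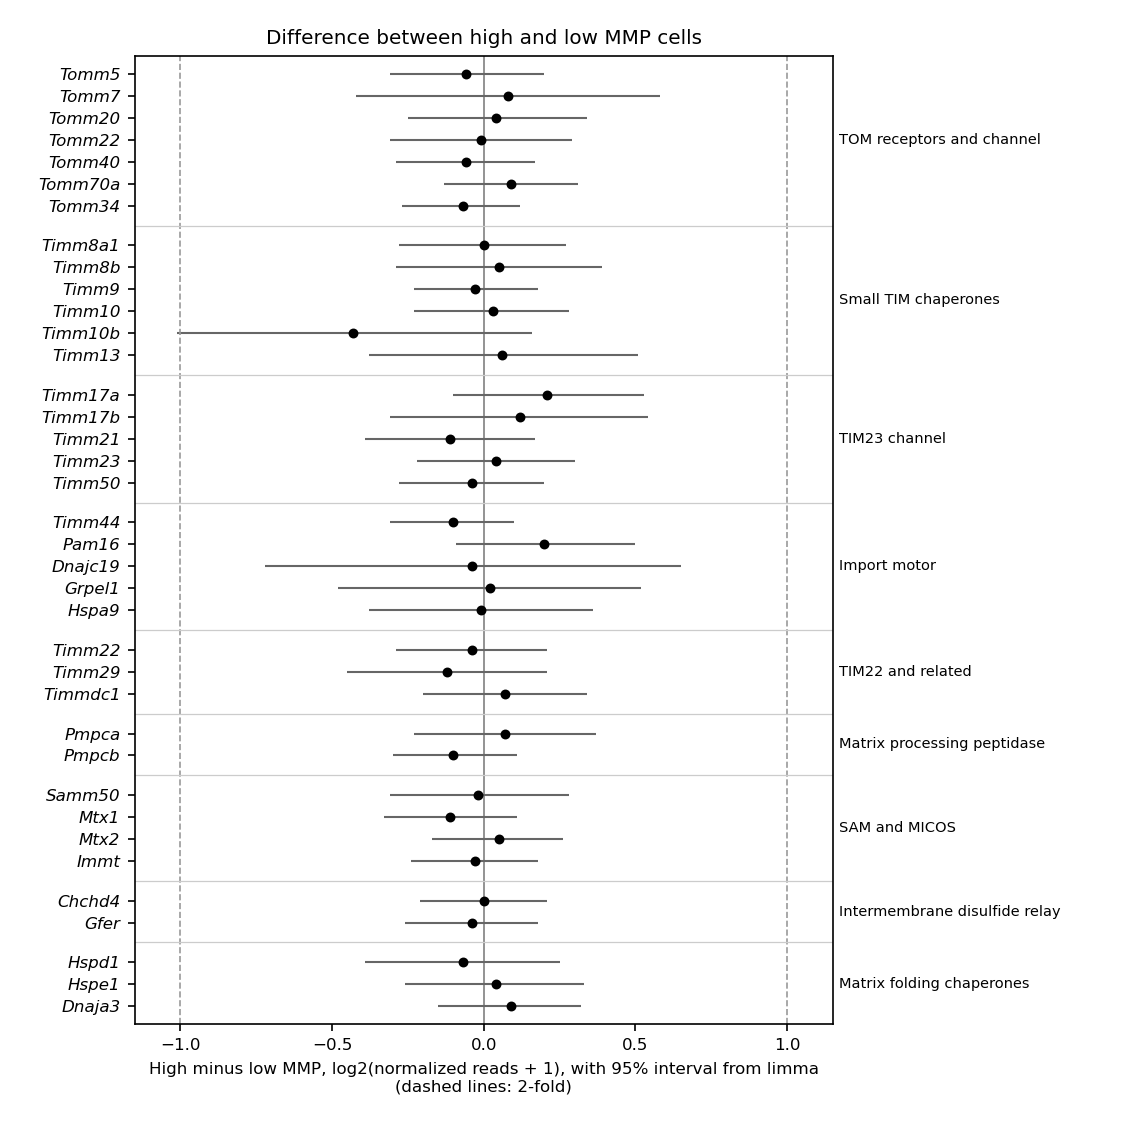
The difference between high and low MMP cells (x axis, log2 of normalized reads + 1, high minus low) is plotted for each import gene (y axis, grouped by complex), with points for the difference and lines for the 95% interval of limma (n = 2 samples per group). All 37 intervals cross 0, and 36 of 37 lie between the dashed lines that mark a 2-fold change, *Timm10b* reaching -1.01.

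Taken as a list, the import genes had a median difference of -0.01, beside -0.04 over all genes, with 17 above 0 and 20 below. This split depended on the scaling, and it was 25 above and 12 below after median-of-ratios rescaling, which moved the median of all genes by 0.03. Around the median of all genes the split was 27 above and 10 below in both fits, and 20 and 17 after quantile normalization. Without high MMP 1, the median of the import genes was -0.06 and that of all genes -0.03. The sign of a difference close to 0 is therefore not read as a direction here. The median absolute difference was 0.06 for the import genes and 0.13 for the well-covered genes. The well-covered genes reach down to a mean of 10 normalized reads, while all import genes but *Timm10b* had means of 204 or more. The part of this difference in level was not tested. In 4 genes both high MMP values lay above both low MMP values, a pattern seen in 13.5% of all genes. In 9 genes both low MMP values lay above both high MMP values, a pattern seen in 24.5% of all genes. As shares of the 37 import genes, both counts sit close to these backgrounds.

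The genes covered a wide range of levels. Per kilobase of merged exons, which allows genes to be compared, the mean level ran from 11.7 normalized reads for *Timm10b* to 9105 for *Hspd1*, with a median of 371. The most abundant were the matrix chaperones *Hspd1* and *Hspa9* (4848 per kilobase), followed by *Tomm22* (3503), a receptor subunit of the TOM complex, and *Hspe1* (2888). *Hspd1* and *Hspa9* together took between 42.2% and 46.1% of the reads of the import genes. In total the import genes took 0.510% and 0.495% of all reads in high MMP cells and 0.505% and 0.508% in low MMP cells. The low MMP values fell between the high MMP values. Lengths count the exons of all annotated isoforms, so genes with long alternative exons, such as *Timm9* and *Immt*, come out lower on this scale.

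**Figure D2:**
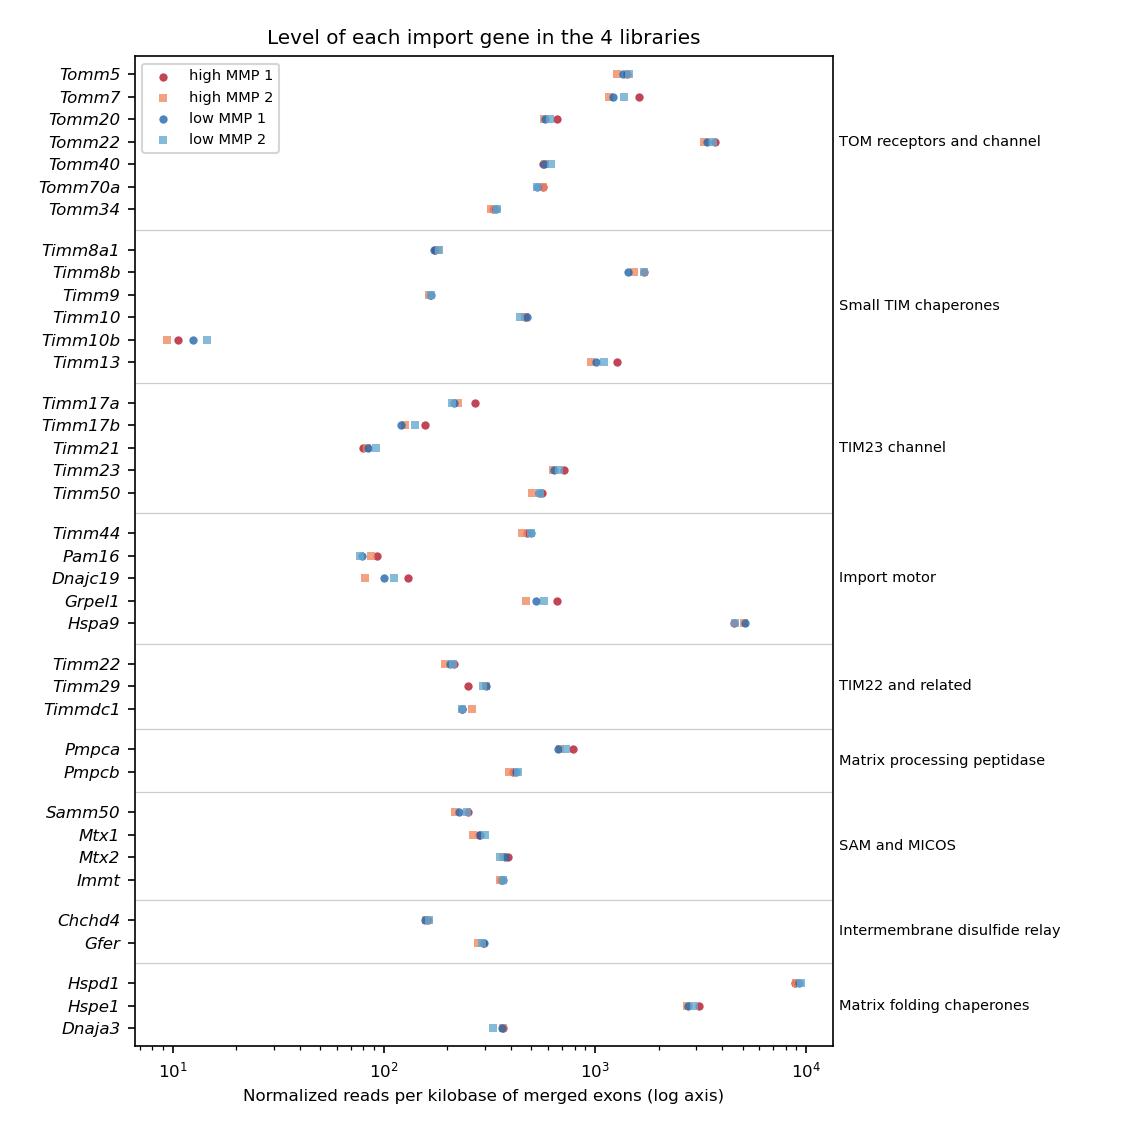
The level of each import gene (x axis, normalized reads per kilobase of merged exons, log axis) is shown in each of the 4 libraries, with circles for replicate 1, squares for replicate 2, red tones for high MMP and blue tones for low MMP. The genes span 11.7 to 9105 on their means, and the 4 points of a gene lie close together beside that range.

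*Hspd1* and *Hspe1* encode the chaperonin and its co-chaperonin and lie head to head on chromosome 1. *Hspd1* (ENSMUSG00000025980, GRCm38 chromosome 1, 55077835 to 55088243) had 23324 and 23560 normalized reads in high MMP cells and 24390 and 24943 in low MMP cells. The groups did not overlap, but the log2 difference was -0.07 (SE 0.12; limma adjusted p 0.925). *Hspe1* (ENSMUSG00000073676, 55088132 to 55091307) had 4607 and 4018 in high and 4053 and 4347 in low MMP cells. Here high MMP 2 was the lowest and high MMP 1 the highest library, and the difference was 0.04 (SE 0.11; limma adjusted p 0.970). The ratio of *Hspe1* to *Hspd1* reads, which does not depend on the scaling of the libraries, was 0.198 and 0.171 in high and 0.166 and 0.174 in low MMP cells (exact permutation test, two-sided, p = 0.667, where 2 samples against 2 cannot go below 0.333). Exons of both genes overlap on opposite strands, and a copy of *Hspe1* with at least 98% identity at another locus carried reads equal to 8.44% of those of *Hspe1* (0.728% for the copies of *Hspd1*). How reads shared by such loci were counted is not stated, so the counts of both genes are uncertain.

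The promoter that these 2 genes share is shown because the pair is a well known target of the mitochondrial stress response among the import genes. No motif particular to that response was searched, so none is marked below. The RefSeq window of *Hspe1* (GRCm38.p6, chr1:55087898-55088197, plus strand) runs from 250 bases before its start to 50 after, and 285 of its 300 bases also lie in a window of *Hspd1* on the minus strand. The capitals mark a stretch of 19 bases, positions -89 to -71 relative to the start of *Hspe1*. It holds 2 matches to the heat shock element (GAA, TTC and GAA, each 2 bases apart) that overlap 2 matches to the ETS motif CCGGAAG.
Hspe1 promoter: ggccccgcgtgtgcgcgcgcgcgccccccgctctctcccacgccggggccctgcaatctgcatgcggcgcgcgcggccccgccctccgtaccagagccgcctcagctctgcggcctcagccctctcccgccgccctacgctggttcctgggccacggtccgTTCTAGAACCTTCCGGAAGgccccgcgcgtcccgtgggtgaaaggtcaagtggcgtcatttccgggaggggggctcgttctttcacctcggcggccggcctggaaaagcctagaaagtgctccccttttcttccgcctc

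RefSeq windows were given for 35 of the 38 genes (38 windows, with none used here for *Tomm7*, *Timm21* and *Hspa9*), and 4 motifs were searched on both strands. A heat shock element was found in 7.89% of these windows, those of *Hspd1*, *Hspe1* and *Timm9*, against 0.603% of all 32851 windows. The ETS motif was found in 50% of the windows against 8.86% of all. The marked stretch lies in a window of *Hspd1* and in that of *Hspe1*, so its matches to both motifs are counted in both windows. The 2 windows of *Tomm34* also overlap, and both count for the ETS motif. These shares are therefore not of independent sites. The binding motif of NRF1, a factor known for driving nuclear genes of mitochondria and written here as GCGCA and GCGC 1 base apart, was found in 18.4% against 4.6%. The CCAAT box was found in 31.6% against 37.4%. All windows include those of noncoding genes, and a match is a description of letters only. The 18 measured genes with an ETS match had a median log2 difference of 0.03, and the 16 without one -0.02. The 7 genes with an NRF1 match had a median of 0.04, and the 27 without one -0.02. The 3 genes with a heat shock element had a median of -0.03 and the 31 without one 0.00, and the 11 with a CCAAT box had -0.03 and the 23 without one 0.00. These differences in medians were not tested.

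*Dnaja3*, a matrix co-chaperone that works with mortalin, had 1431 and 1435 normalized reads in high and 1417 and 1282 in low MMP cells. Both high values lay above both low values, the nearer one by little, and the difference was 0.09 (SE 0.09; limma adjusted p 0.839). It was 0.16 without low MMP 1 and 0.02 without low MMP 2. Together the 3 folding chaperones *Hspd1*, *Hspe1* and *Dnaja3* had a median difference of 0.04, which was -0.06 without high MMP 1.

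At the outer membrane, the 7 measured TOM genes had a median difference of -0.01, with values from -0.07 to 0.09. *Tomm40* (ENSMUSG00000002984, chromosome 7, 19701313 to 19715438), which forms the channel, had 2559 and 2602 normalized reads in high and 2578 and 2803 in low MMP cells, for a log2 difference of -0.06 (SE 0.08; limma adjusted p 0.906). The groups overlapped. *Tomm20*, the receptor for presequences, had 3245 and 2804 in high and 2838 and 3012 in low MMP cells, for a log2 difference of 0.04 (SE 0.11; adjusted p 0.963). Its high MMP values enclosed both low MMP values. *Tomm70a* (ENSMUSG00000022752, chromosome 16, 57121703 to 57156705), the receptor for carrier proteins, had 5549 and 5534 in high and 5201 and 5214 in low MMP cells. Replicates of *Tomm70a* differed by less than the groups did, and its difference of 0.09 (SE 0.08) had an adjusted p of 0.811 in limma. *Tomm22*, the central receptor and the most abundant TOM gene per kilobase, had 6147 and 5395 in high and 5577 and 6014 in low MMP cells, for a log2 difference of -0.01 (SE 0.11; adjusted p 0.994) whose sign changed with the scaling. *Tomm34*, a cytosolic cofactor of import, was slightly higher in both low MMP libraries, at 995 and 981 in high and 1033 and 1046 in low MMP cells. The small subunits *Tomm5* and *Tomm7* differed by -0.06 and 0.08, and *Tomm7* had the wider spread, from 1313 normalized reads in high MMP 2 to 1812 in high MMP 1.

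The small TIM proteins are chaperones of the intermembrane space that carry hydrophobic proteins to the inner membrane. Their 6 genes had a median difference of 0.01. *Timm10b* (ENSMUSG00000089847, chromosome 7, 105640056 to 105643637), which docks these chaperones on the TIM22 translocase, had the largest difference and the lowest level of all import genes, with 37.9 and 33.5 normalized reads in high and 44.5 and 52.2 in low MMP cells. The groups did not overlap, and the difference of -0.43 (SE 0.22; limma adjusted p 0.650) had a 95% interval from -1.01 to 0.16. These values rest on 40 to 59 recovered reads per library, and the exons of *Timm10b* overlap another gene on the same strand. *Timm8b* was the most abundant small TIM gene per kilobase, with 887 and 797 in high and 746 and 885 in low MMP cells, and a difference of 0.05 (SE 0.12; adjusted p 0.964). The groups of *Timm8b* overlapped. *Timm9* and *Timm10*, which form 1 hexamer, differed by -0.03 and 0.03, *Timm8a1* by -0.00 and *Timm13*, the partner of the Timm8 proteins, by 0.06. *Timm9* was the steadiest of them, at 702 to 719 normalized reads in the 4 libraries.

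In the inner membrane, the 5 genes of the TIM23 channel had a median difference of 0.04, which was -0.05 without high MMP 1 and 0.12 without high MMP 2. *Timm23* (ENSMUSG00000013701, chromosome 14, 32180162 to 32201898), the channel protein, had 1270 and 1131 normalized reads in high and 1138 and 1201 in low MMP cells. Its difference was 0.04 (SE 0.10; limma adjusted p 0.965), and the groups overlapped. *Timm50*, the receptor that hands presequences to the channel, had 1500 and 1351 in high and 1454 and 1479 in low MMP cells, for a log2 difference of -0.04 (SE 0.09; adjusted p 0.951). *Timm17a* (ENSMUSG00000062580, chromosome 1, 135295213 to 135313778), a channel subunit known as an unstable protein that is lost under stress, had 2127 and 1773 in high and 1688 and 1660 in low MMP cells. Both high MMP values lay above both low MMP values, and its difference of 0.21 was the largest positive one among the import genes. It did not pass the test (SE 0.12; limma adjusted p 0.675, interval -0.10 to 0.53; edgeR adjusted p 0.689). The difference was 0.08 without high MMP 1 and 0.35 without high MMP 2, where its unadjusted p was under 0.05, as it was for 16.6% of all genes in that fit. For *Timm17a* the gap between the high MMP libraries was wider than that between the nearest high and low values. The paralog *Timm17b* had 402 and 322 in high and 309 and 357 in low MMP cells, with overlapping groups and a difference of 0.12. *Timm21*, a regulatory subunit, was at 296 and 310 in high and 314 and 341 in low MMP cells, for a log2 difference of -0.11 (adjusted p 0.821).

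The import motor on the matrix side had a median difference of -0.01 over 5 genes. *Hspa9* encodes mortalin, the ATPase of the motor, and had 19717 and 21922 normalized reads in high and 22151 and 19786 in low MMP cells. Each group held 1 high and 1 low library, and the difference was -0.01 (SE 0.14; limma adjusted p 0.994), with a sign that changed under other scalings. *Pam16* (ENSMUSG00000014301, chromosome 16, 4616464 to 4624988), a regulator of the motor's J-protein, had 225 and 212 in high and 192 and 188 in low MMP cells. These groups did not overlap, and the difference of 0.20 (SE 0.11; adjusted p 0.677 in limma and 0.689 in edgeR) rested on some of the lowest levels of the list, 83.8 normalized reads per kilobase. *Timm44*, which tethers mortalin to the channel, was lower in both high MMP libraries, at 1744 and 1654 against 1818 and 1828, a difference of -0.10 (SE 0.08; adjusted p 0.765). The other motor genes were the most variable between the high MMP libraries. *Grpel1*, the nucleotide exchange factor of mortalin, had 2320 and 1663 in high and 1856 and 2017 in low MMP cells. *Dnajc19*, a J-protein of the motor, had 525 and 329 in high and 404 and 451 in low MMP cells. In both genes the high MMP values enclosed the low MMP values, and the differences were 0.02 (SE 0.18) and -0.04 (SE 0.25).

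Of the genes of the TIM22 route and related factors, *Timm29*, a subunit of the TIM22 complex, had 795 and 962 normalized reads in high and 962 and 937 in low MMP cells. High MMP 1 was the low library here, and the difference was -0.12 (SE 0.12; limma adjusted p 0.846). Without high MMP 2 the difference was -0.26, and without high MMP 1 it was 0.02, so its direction rested on high MMP 1. *Timm22*, the channel itself, differed by -0.04, and *Timmdc1*, an assembly factor of respiratory complex I that resembles TIM subunits, by 0.07.

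The 2 subunits of the matrix processing peptidase differed by small values of opposite sign. *Pmpca*, the subunit that recognises presequences, had 3360 and 2917 in high and 2853 and 3122 in low MMP cells, for a log2 difference of 0.07 (SE 0.11; limma adjusted p 0.925). *Pmpcb*, the catalytic subunit, had 2102 and 2022 in high and 2177 and 2231 in low MMP cells, for a log2 difference of -0.10 (SE 0.07; adjusted p 0.783). The groups overlapped for *Pmpca* and did not for *Pmpcb*.

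For the SAM complex and the cristae organising system MICOS, which are linked to each other, the median difference was -0.02 over 4 genes. *Mtx1* had 1008 and 949 in high and 1027 and 1084 in low MMP cells, for a log2 difference of -0.11 (SE 0.08; limma adjusted p 0.771). Its partner *Mtx2* had 1421 and 1351 in high and 1379 and 1305 in low MMP cells, for a log2 difference of 0.05 (SE 0.08; adjusted p 0.931). The groups were separate for *Mtx1* and overlapped for *Mtx2*. *Samm50*, the barrel insertase, differed by -0.02, and *Immt*, the core of MICOS, by -0.03 with 4037 to 4154 normalized reads in the 4 libraries. In the disulfide relay that folds proteins of the intermembrane space, the oxidoreductase *Chchd4* differed by 0.00 and its oxidase *Gfer* by -0.04 (SE 0.08; adjusted p 0.952). *Gfer* had 658 and 621 in high and 663 and 651 in low MMP cells, with overlapping groups.

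Replicates were then compared within each group, as a description with no test. High MMP 1 was the highest of the 4 for 18 of the 37 import genes (28.4% of the well-covered genes), and high MMP 2 the lowest for 20 (29.3% of those genes). High MMP 1 exceeded high MMP 2 in 28 of 37 genes, against 47.6% of those genes. The median log2 difference between the high MMP libraries was 0.09 for the import genes and -0.02 for the well-covered genes, and it was largest at 0.67 for *Dnajc19*, 0.48 for *Grpel1*, 0.46 for *Tomm7* and 0.41 for *Timm13*. *Timm29* (-0.27), *Timmdc1* (-0.16) and *Hspa9* (-0.15) went the other way. In 23 of 37 genes the distance between the high MMP libraries was larger than that between the group means. This count was not taken over all genes. The median absolute log2 difference was 0.15 between the high MMP libraries and 0.06 between the groups for the import genes. For the well-covered genes it was 0.21 and 0.13, so the relation is not particular to the import genes. Among the epithelial markers, *Krt8* had 19554 and 13147 normalized reads in high and 15446 and 18985 in low MMP cells, and *Krt18* had 19276 and 13139 against 15781 and 18021, with high MMP 1 the highest library for both. *Cdh1* had 3903 and 4726 in high and 5421 and 5426 in low MMP cells, with high MMP 1 the lowest, and *Epcam* was highest in low MMP 2, at 4619. The part of these markers in the pattern was not tested. The low MMP libraries differed by a median of -0.06, with low MMP 2 the higher. The median difference between the groups over the import genes was therefore -0.06 without high MMP 1 and 0.03 without high MMP 2, with 10 genes higher in the first case and 23 in the second.

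Across the well-covered genes with an annotated length, the difference between the high MMP libraries had a Spearman correlation of -0.31 with log exon length (12877 genes), and that between the low MMP libraries 0.22. Over the 37 import genes the same correlations were -0.11 and 0.18. Genes within a library share its depth and composition, so these are descriptions with no test. The 18 shorter import genes (518 to 3183 bases) had a median of 0.14 between the high MMP libraries and the 19 longer ones (3528 to 11353 bases) 0.07, and high MMP 1 was the higher in 13 and 15 of them.

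**Figure D3:**
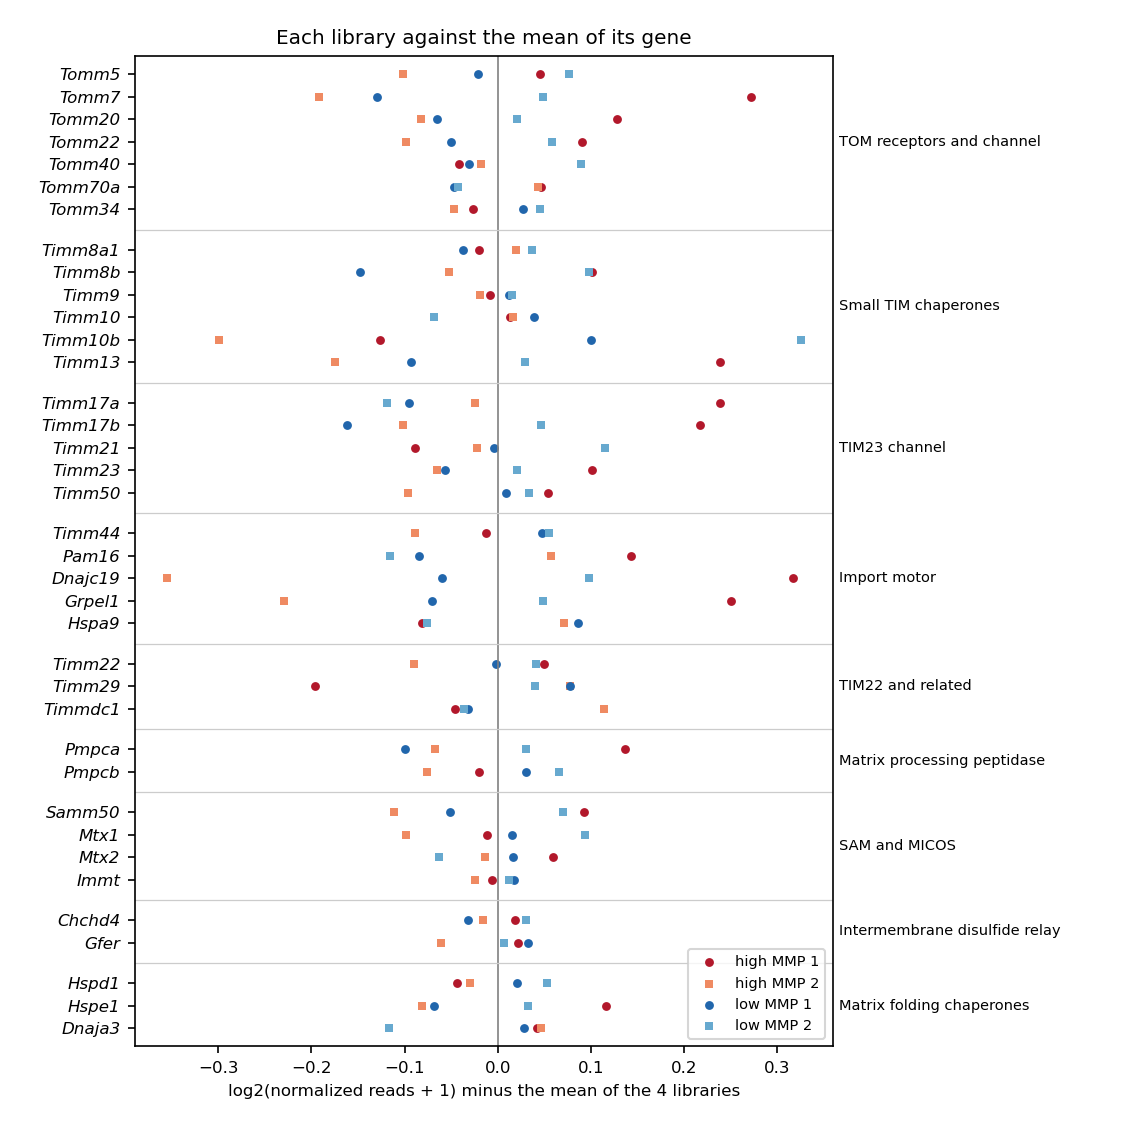
For each import gene (y axis, grouped by complex) the 4 libraries are plotted as log2(normalized reads + 1) minus the mean of that gene's 4 values (x axis), with circles for replicate 1, squares for replicate 2, red tones for high MMP and blue tones for low MMP. High MMP 1 is the rightmost point in 18 of 37 genes and high MMP 2 the leftmost in 20, while red lies fully right of blue in 4 and fully left of it in 9.

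High MMP 2 had the lowest median of the 4 libraries in every complex except that of the TIM22 route. Centred on the 4 libraries, the median of the import motor was 0.14 in high MMP 1, -0.09 in high MMP 2, -0.06 in low MMP 1 and 0.05 in low MMP 2. That of the TIM23 channel was 0.10, -0.07, -0.06 and 0.03 in the same order, and that of the TOM complex 0.05, -0.08, -0.05 and 0.05. The 3 genes of the TIM22 route were at -0.05 in high MMP 1 and 0.08 in high MMP 2. In none of the 9 complexes did both high MMP medians lie on one side of both low MMP medians.

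**Figure D4:**
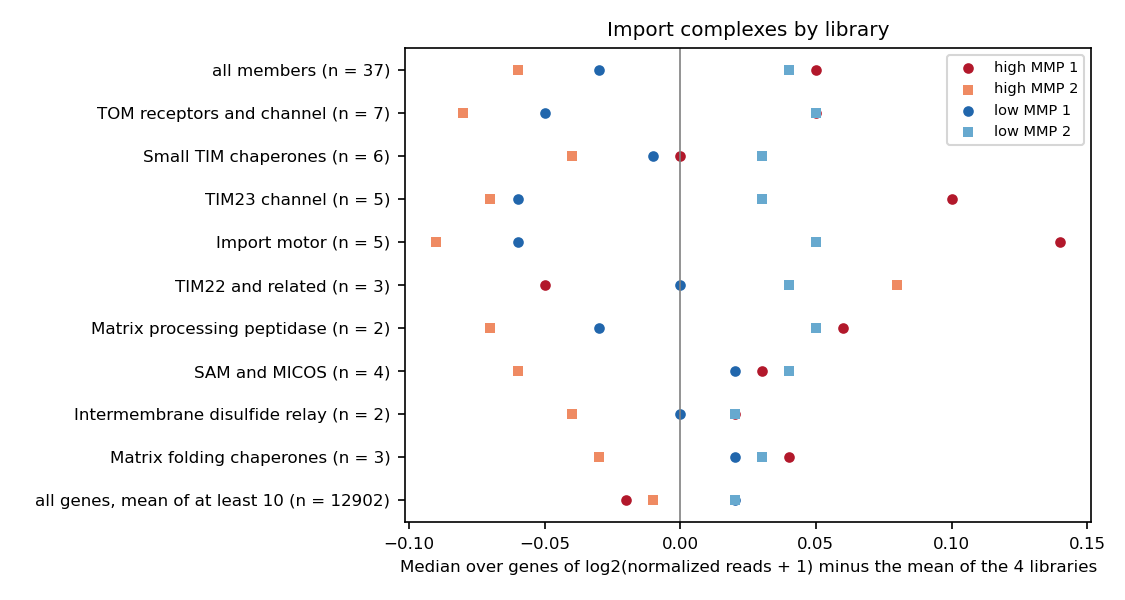
The median over the genes of each complex of log2(normalized reads + 1), centred on the 4 libraries (x axis), is plotted per library for 9 complexes, for all 37 import genes and for the 12902 well-covered genes (y axis, with the number of genes). High MMP 1 and high MMP 2 lie at the 2 ends for the motor (0.14 and -0.09) and the TIM23 channel (0.10 and -0.07), with both low MMP libraries between them.

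Genes that act as partners were also set against each other within each library, since their ratio is free of the scaling. In total 8 ratios were compared. The ratio of *Pmpca* to *Pmpcb* was 1.60 and 1.44 in high and 1.31 and 1.40 in low MMP cells, a log2 difference of 0.17 that ran from 0.09 without high MMP 1 to 0.24 without high MMP 2. The ratio of *Mtx1* to *Mtx2* was 0.709 and 0.703 in high and 0.745 and 0.831 in low MMP cells, a log2 difference of -0.16 that was -0.24 without low MMP 1 and -0.08 without low MMP 2. The groups did not overlap in either ratio. With 2 samples against 2, any ratio whose groups do not overlap gets the smallest p possible (exact permutation test, two-sided, p = 0.333, adjusted p = 1 over the 8 ratios). No ratio could therefore pass, and the test cannot decide on either of these. The ratio of *Timm17a* to its paralog *Timm17b* was 5.29 and 5.50 in high and 5.45 and 4.65 in low MMP cells. For the nucleotide exchange factor and its ATPase, *Grpel1* to *Hspa9*, the ratio varied most, from 0.0758 in high MMP 2 to 0.118 in high MMP 1, with 0.0838 and 0.102 in low MMP cells. The ratio of *Tomm20* to *Tomm70a*, of the presequence receptor to the carrier receptor, was 0.585 and 0.507 in high and 0.546 and 0.578 in low MMP cells. *Timm10* to *Timm9* and *Timm13* to *Timm8b* differed by 0.06 and 0.02 on the log2 scale. The 6 pairs with overlapping groups had exact permutation p-values of 0.667 to 1.

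**Figure D5:**
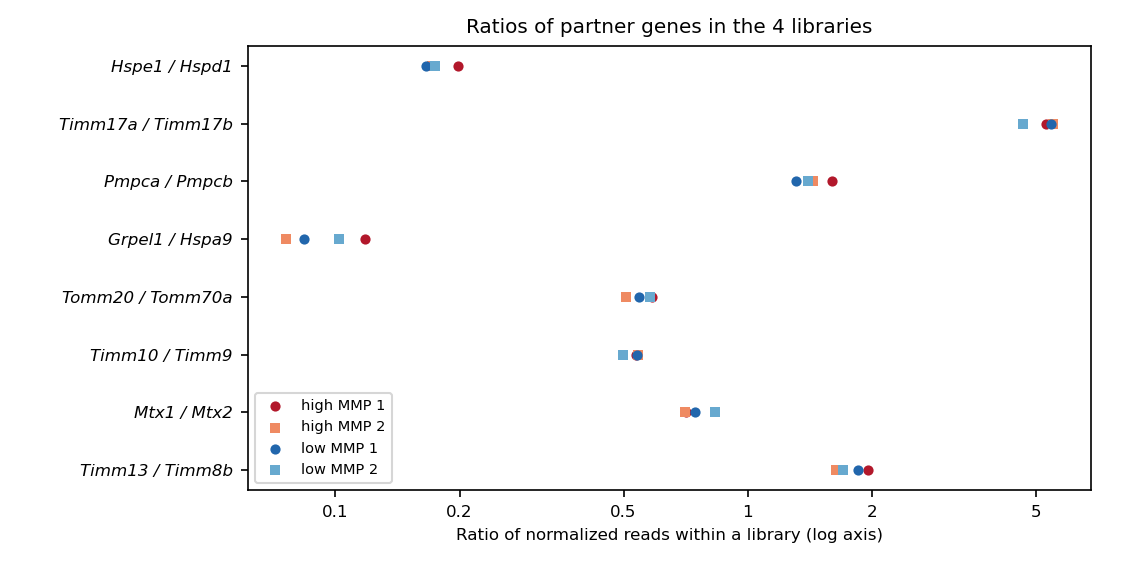
The ratio of normalized reads of 8 partner pairs (y axis) is plotted within each of the 4 libraries (x axis, log axis), with circles for replicate 1, squares for replicate 2, red tones for high MMP and blue tones for low MMP. Red and blue points separate for *Pmpca* to *Pmpcb* (1.44 and 1.60 against 1.31 and 1.40) and for *Mtx1* to *Mtx2* (0.703 and 0.709 against 0.745 and 0.831).

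A list of 32 further genes of import, sorting, processing and quality control, none of them in the list above, was measured in full. At an adjusted p under 0.05 limma, edgeR and DESeq2 each called 0 of 32, against 0%, 0% and 0.584% of all genes. At an unadjusted p under 0.05 limma and edgeR had 0 of 32, against 9.96% and 7.05%. Their median difference was -0.06, with 11 above 0 and 21 below. Over all genes it was -0.04, with 8359 above 0 and 11838 below. The sign of such small differences is not read as a direction here either. Of the 32 genes, the 4 of smallest p were *Yme1l1*, *Htra2*, *Phb2* and *Mtx3*. *Yme1l1*, a protease of the inner membrane that degrades Timm17a, had 5718 and 5397 normalized reads in high and 4990 and 4895 in low MMP cells, for a log2 difference of 0.17 (SE 0.08; limma adjusted p 0.644). *Htra2*, a protease of the intermembrane space, had 1329 and 1567 in high and 1677 and 1634 in low MMP cells, for a log2 difference of -0.20 (adjusted p 0.684). The prohibitin *Phb2*, at 4521 and 4078 against 4732 and 4800, and the metaxin *Mtx3*, at 825 and 1014 against 1073 and 1029, differed by -0.15 and -0.20. The groups did not overlap in these 4 genes. Over the 32 genes, 2 had both high values above both low values (13.5% of all genes) and 6 the reverse (24.5% of all genes), so neither count exceeds its background.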

How the data were processed

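RNA was measured in 2 high MMP and 2 low MMP samples of 4T1 cells, grouped by their titles. The authors prepared stranded mRNA libraries, aligned reads to GRCm38 (mm10) with STAR and counted them per gene (the submitters' processing notes name HTSeq), without stating how strand and shared reads were handled. The deposited values are a signal, reads per gene scaled to 20000000 per library. Whole reads were recovered for 100.0% of values (within 0.05 read).

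The test was limma 3.58.1 (R 4.3.3, trend on the mean) on log2(value + 1) with the group as its single factor, and p-values adjusted by Benjamini-Hochberg over 20197 genes. The labels do not say whether samples came from separate cultures (the study counts 2 independent experiments), so p-values measure the spread between these samples. The labels do not say whether samples with the same number came from the same sort, and the main fit did not use the numbers as pairs. Same-numbered samples did not deviate together (correlation -0.421 over 12902 genes), but this does not settle the pairing. Fits with the numbers as a block are therefore among the alternatives. Alternatives were other pseudocounts (0.5 and 5), filters on the mean (1 and 10), median-of-ratios and quantile scaling, no trend, a replicate block, edgeR 4.0.16 (all genes) and DESeq2 1.42.0 on recovered reads, and leaving out each library. The fits were tested on simulated data with 2 samples per group, where limma made no call and edgeR and DESeq2 called most of the changed genes. In the measured data, however, edgeR without a replicate block also called 0 of 20197 genes. The G2/M-phase gene *Ube2c*, with a log2 difference of 1.30, had an adjusted p of 0.484 in edgeR and 1.57e-15 in DESeq2. A count of 0 from limma or from edgeR therefore says little by itself.

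The genes and lists were chosen with earlier results of these data known. Given in full were 7 core genes (*Tomm20*, *Tomm40*, *Timm23*, *Timm50*, *Hspa9*, *Hspd1* and *Hspe1*) and, per complex, the gene of highest level per kilobase and that of largest difference. Of the further pathway genes, the 4 of smallest p were named. Other import genes were named without such a rule. Positions and exon lengths are from GENCODE on GRCm38. Copies were searched with BLAST 2.17.0 (at least 150 bases at 98% identity), and 10 import genes had 1 or more. Copies carried at most 2.63% of a gene's reads, except for *Hspe1* and for *Gfer*, which shares a stretch with a far more abundant gene. Exons of 19 import genes overlap another gene.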

Additional observations from a re-analysis of the deposited data

How the results depend on the processing

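No import gene had an adjusted p under 0.05 in any fit, including limma and edgeR with the replicate block. Same-numbered libraries had deviations with a correlation of -0.421 over 12902 genes and -0.580 over the import genes, and the replicate block changed the call of none. With crossed numbers as the block, chosen after seeing the data, limma called 0 and edgeR called 733 of all genes (3.63%, against 106 or 0.525% with the labelled numbers), 0 of them import genes. At an unadjusted p under 0.05 the count of import genes was 1 in quantile normalization (*Pam16*, 10.8% of all genes), 1 in edgeR with crossed numbers (*Timm17a*, 11.9%), and 0 to 2 when 1 library was left out (*Timm29* and *Timm17a* without high MMP 2). For the 32 further pathway genes it was 0 to 6, with 1 without high MMP 1 (11.2% of all genes) and 6 without high MMP 2 (16.6%). The alternatives for these genes, for overlap and for ratios were chosen after seeing the data. Import genes with high above low numbered 6 after median-of-ratios rescaling (16.7% of all genes) and 7 after quantile normalization (16.4%), and those with low above high 5 (21%) and 6 (16.9%). Median differences moved under median-of-ratios rescaling, edgeR and DESeq2 to 0.05 to 0.06 for the small TIM genes (0.07 in quantile normalization), 0.02 for the disulfide relay and 0.07 to 0.08 for the folding chaperones. Signs turned for *Timm50* (0.00 in DESeq2), *Gfer* (0.00 in median-of-ratios rescaling and DESeq2), *Hspa9* (0.03) and *Tomm22* (0.03, and 0.04 in DESeq2), the latter pair in median-of-ratios rescaling, edgeR and DESeq2. Leaving out 1 library gave medians of -0.08 to 0.09 for TOM, -0.03 to 0.01 for the small TIM genes, -0.05 to 0.12 for the TIM23 channel, -0.14 to 0.25 for the motor, -0.06 to 0.02 for the TIM22 route, -0.08 to 0.05 for the processing peptidase, -0.08 to 0.03 for SAM and MICOS and -0.06 to 0.09 for the folding chaperones. The log2 ratios ran from -0.02 to 0.21 for *Timm17a* to *Timm17b*, -0.28 to 0.35 for *Grpel1* to *Hspa9*, -0.15 to 0.06 for *Tomm20* to *Tomm70a*, 0.00 to 0.22 for *Hspe1* to *Hspd1*, 0.09 to 0.24 for *Pmpca* to *Pmpcb*, -0.24 to -0.08 for *Mtx1* to *Mtx2*, 0.00 to 0.11 for *Timm10* to *Timm9* and -0.11 to 0.15 for *Timm13* to *Timm8b*. Single genes ran from -0.06 to 0.15 (*Tomm20*), -0.12 to 0.00 (*Tomm40*), -0.05 to 0.12 (*Timm23*), -0.12 to 0.03 (*Timm50*), -0.09 to 0.07 (*Hspa9*), -0.06 to 0.13 (*Hspe1*), -0.10 to 0.09 (*Tomm22*), -0.07 to 0.17 (*Timm8b*), -0.26 to 0.02 (*Timm29*), -0.03 to 0.17 (*Pmpca*), 0.02 to 0.16 (*Dnaja3*) and -0.08 to 0.00 (*Gfer*). Where a fit left 1 library in a group, that library was assumed to vary like the other group. The cause was not tested. With 2 samples per group, the absence of calls among the import genes says little about stability.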
